A study of Mus musculus with 24 samples.

Results

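The genes described here are 42 mouse genes that encode the kinetochore, the spindle assembly checkpoint and the machinery of chromosome separation and cytokinesis. They were taken by symbol from a table of 17721 genes, and 42 of 42 were measured. The table holds the authors' comparison of daily rhythms in the epidermis of EpiKO mice, in which Cre recombinase under the keratin 14 (K14) promoter deletes Bmal1, with those of wild-type (WT) epidermis. Bmal1 (gene symbol Arntl) is a core activator of the circadian clock, and the keratin 14 promoter is active in basal keratinocytes. Cells of the epidermis outside the keratinocyte lineage may not be targeted by this driver, and which cells lost Bmal1 was not measured here.

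The EpiKO samples were back skin epidermis of C57BL/6 males, 8 weeks old, kept in 12 h light and 12 h dark. Animals were collected every 4 h over the day, 4 at each of 6 times and 24 in all, and zeitgeber time (ZT) 0 is lights on. WT libraries are not among the samples listed for this study, so genotype and the set of libraries cannot be told apart, and strain, age and sex of the WT animals were not analysed here. The table holds 1 fitted curve per gene and genotype and no values per library, so the depth behind each gene is unknown and the values of single animals cannot be shown. In such bulk samples, fewer dividing cells and less RNA per dividing cell cannot be told apart.

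The kinetochore is the protein complex that builds on the centromere of each chromosome and holds it to the spindle. Kinetochores without proper attachment generate a checkpoint signal that blocks CDC20, the activator of the anaphase-promoting complex. Once all chromosomes are attached, that complex marks securin and cyclin B for destruction, separase cuts cohesin, the sister chromatids part and the cell is divided by the contractile ring. Many of these genes are transcribed late in the cell cycle by complexes with B-MYB and FOXM1 that act through the cell cycle genes homology region (CHR) and through CCAAT boxes bound by NF-Y. In the epidermis, division takes place mostly in the basal layer and its timing follows the day.

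To show the sequence that these genes share, RefSeq promoters (GRCm38.p6, 250 bases before to 50 after the start) were searched on both strands. Of the 42 genes 35 matched, with 40 promoters, and where a gene has several starts their windows can overlap. Spc24, Ska1, Zwilch, Aurkb, Incenp, Tpx2 and Foxm1 had no entry. A CHR (TTTGAA or TTTAAA) was found in 28 of the 40 promoters, or 70%, against 27.59% of all 32851 promoters. A CCAAT box was found in 30, or 75%, against 37.41%, and both motifs in 22, or 55%, against 10.73%. The canonical E-box CACGTG, which CLOCK and BMAL1 bind, was in 4, or 10%, against 7.15% of all promoters. An E2F site (TTCCCGC or TTCGCGC or TTGGCGC) was in 7, or 17.5%, against 8.073%. These matches are letters in a window and show no binding. The 120 bases just before the start are shown for 5 genes with CHR and CCAAT letters, and for Cenpm, which peaked early in WT and has neither in these 120 bases. Further upstream, Cenpm has CCAAT letters at 131 and 172 bases before the start, within the window searched. Capitals mark CHR, CCAAT and E2F letters on either strand, each sequence runs 5′ to 3′ along the gene, and the 6 were chosen after their values were seen.
Cdc20: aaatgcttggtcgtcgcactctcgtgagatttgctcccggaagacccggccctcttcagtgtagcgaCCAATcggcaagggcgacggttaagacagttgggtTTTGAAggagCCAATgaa
Plk1: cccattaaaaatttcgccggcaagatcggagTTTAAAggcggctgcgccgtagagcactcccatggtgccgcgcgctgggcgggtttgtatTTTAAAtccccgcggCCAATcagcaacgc
Ube2c: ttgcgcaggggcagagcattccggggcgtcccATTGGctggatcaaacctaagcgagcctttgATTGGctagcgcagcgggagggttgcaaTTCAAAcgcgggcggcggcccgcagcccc
Cenpa: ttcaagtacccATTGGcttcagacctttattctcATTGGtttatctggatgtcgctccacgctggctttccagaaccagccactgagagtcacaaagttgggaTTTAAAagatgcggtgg
Espl1: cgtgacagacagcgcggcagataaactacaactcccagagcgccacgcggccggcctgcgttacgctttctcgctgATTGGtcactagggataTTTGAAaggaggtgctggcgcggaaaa
Cenpm: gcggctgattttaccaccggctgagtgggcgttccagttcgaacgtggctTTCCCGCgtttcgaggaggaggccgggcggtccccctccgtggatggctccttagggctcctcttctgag

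The Cdc20 window is chr4:118437344-118437463 on the minus strand, that of Plk1 is chr7:122159315-122159434 on the plus strand and that of Ube2c is chr2:164769809-164769928 on the plus strand. The Cenpa window is chr5:30666766-30666885 on the plus strand, that of Espl1 is chr15:102296173-102296292 on the plus strand and that of Cenpm is chr15:82244337-82244456 on the minus strand.

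Most of the 42 genes cycled in both genotypes, but at different times of day. The authors' fit, dryR, weighs 5 models of a gene's rhythm, and the best-weighted model was taken as a gene's class where its weight reached 0.5. Different rhythms in EpiKO and WT were assigned to 35 of the 42 genes by the authors' deposited table, against 2.65% of all genes. Cenpk, Bub3 and Ttk were assigned a rhythm in WT only (3 genes, 8.41% of all genes). Spc24 and Ska3 were assigned one in EpiKO only (2 genes, 4.31% of all genes). Zwint and Pttg1 had no rhythm (2 genes, 56.7% of all genes), and 0 of the 42 had the same rhythm in both genotypes, a class that held 16.7% of all genes. The weight for different rhythms was at least 0.99 for 33 genes, and the lowest weight of an assigned model was 0.593, for Pttg1.

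**Figure D1:**
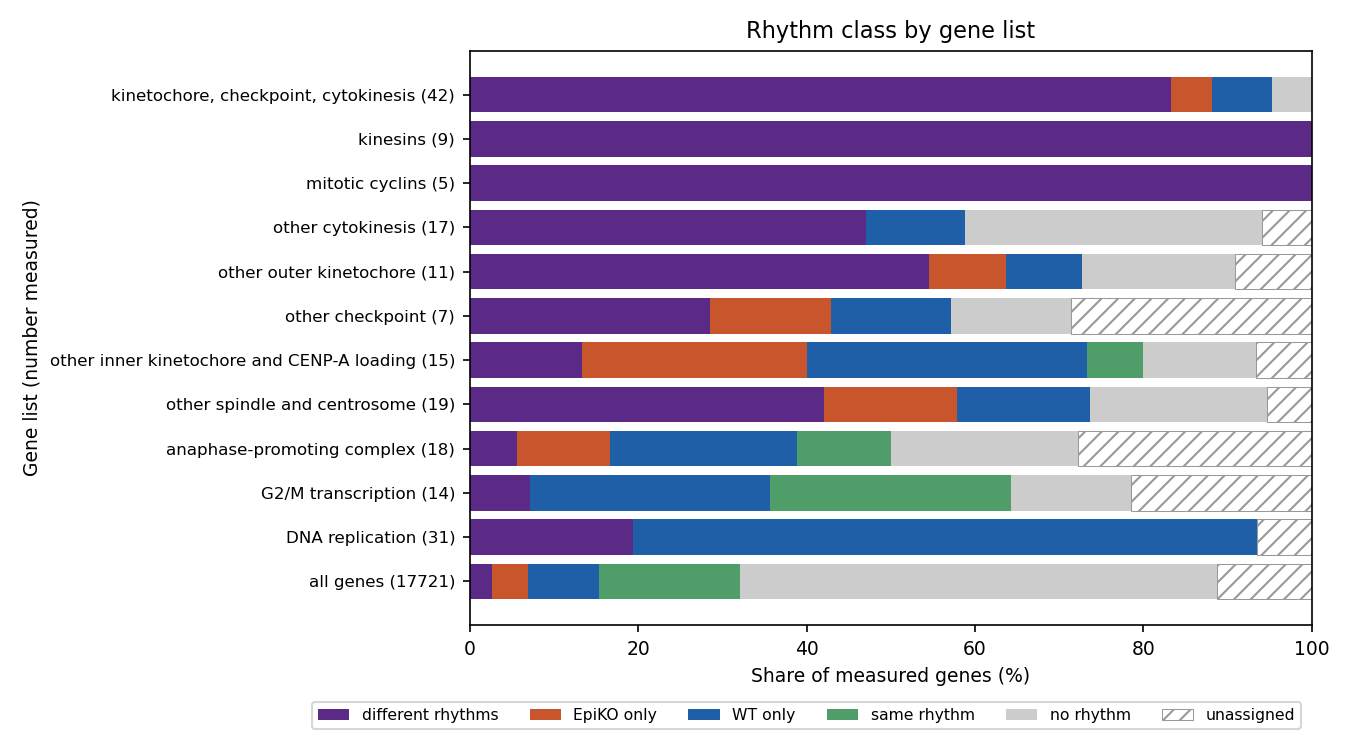
Share of measured genes (%, horizontal axis) in each rhythm class for the 42 genes (top bar), for lists of related genes and for all 17721 genes (bottom bar). Different rhythms make up 35 of the 42 genes, 9 of 9 kinesins and 5 of 5 mitotic cyclins, but 6 of 31 DNA replication genes. Of those 31 genes, 23 were in the WT-only class.

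The model weights also hold the likelihood ratio of each pair of nested models, from which a test per gene was recovered, with p adjusted by the Benjamini-Hochberg method over all 17721 genes and a threshold of 0.05. By this test the rhythm differed between genotypes for 39 of the 42 genes (5.17% of all genes passed). The exceptions were Zwint (adjusted p = 0.818), Pttg1 (0.742) and Cenpk (0.0671). A rhythm in EpiKO passed for 37 genes, against 12.4% of all genes, and a rhythm in WT for 38, against 21.5%. Ttk, Bub3, Spc24 and Ska3, each rhythmic in 1 genotype, were among the 39 whose rhythms differed. The p-values measure spread between libraries as the authors' fit estimated it, which could not be seen here.

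Positions of the genes that the following results turn on, in mm10 with GENCODE M21 gene bounds, are as follows. The NDC80 complex gene is Spc24 (ENSMUSG00000074476; chromosome 9, 21755442 to 21760303), and the centromere gene is Cenpa (ENSMUSG00000029177; chromosome 5, 30666777 to 30674830). The checkpoint kinase gene is Ttk (ENSMUSG00000038379; chromosome 9, 83834689 to 83872389), and the survivin gene is Birc5 (ENSMUSG00000017716; chromosome 11, 117849251 to 117855743). The spindle pole gene is Aspm (ENSMUSG00000033952; chromosome 1, 139454772 to 139494091).

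**Figure D2:**
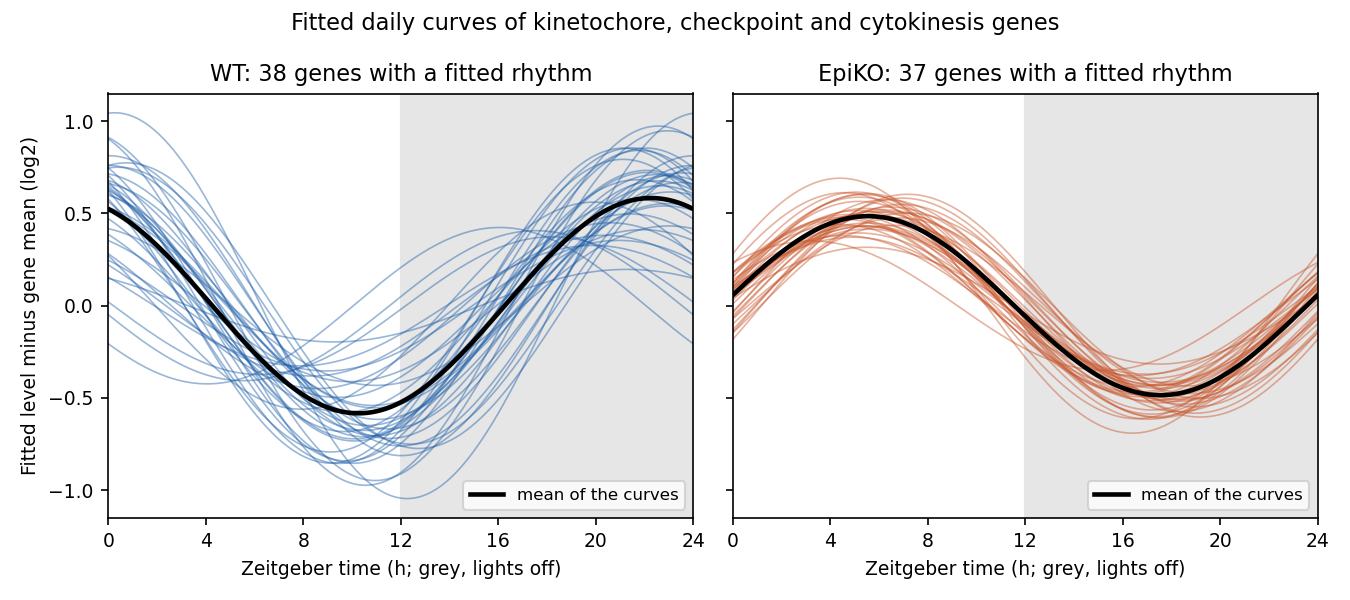
Fitted level minus the gene's mean (log2, vertical axis) against zeitgeber time (h) for each of the 38 genes with a fitted WT rhythm (left) and the 37 with a fitted EpiKO rhythm (right); the black line is the mean of the curves and grey is lights off. The WT curves crest late in the dark, around a mean peak of ZT22.1 for the 35 genes with different rhythms, and the EpiKO curves in the light, around ZT5.54.

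Of the outer kinetochore, which binds microtubules, 6 of 9 genes had different rhythms and 8 of 9 passed the test of a difference. Spc25 of the NDC80 complex went from 3.27-fold, peak over trough, at ZT21.5 in WT to 2.04-fold at ZT5.12 in EpiKO in the authors' deposited table. Knl1, the scaffold that recruits checkpoint kinases, went from 3.27-fold at ZT22.1 to 2.10-fold at ZT6.49 in the authors' deposited table. Ska1, which steadies attachments to shrinking microtubules, had 3.003-fold (ZT21.1) in WT and 1.95-fold (ZT4.51) in EpiKO in the authors' deposited table. The curves of all 3 crest near the end of the dark in WT and in the first part of the light in EpiKO. Their delays were 7.66 ± 0.55 h (SE, from the recovered statistics) for Spc25, 8.43 ± 0.741 h for Knl1 and 7.39 ± 0.936 h for Ska1. The rhythm difference had an adjusted p of 9.27e-32 for Spc25, the smallest of the 42 genes, in the likelihood ratio test.

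Spc24, Ska3, Zwint and Zwilch departed from that pattern, while Ndc80 and Nuf2 had different rhythms with peaks at ZT21.6 and ZT22.1 in WT in the authors' deposited table. Spc24, the partner of SPC25 in the NDC80 complex, cycled 1.92-fold in EpiKO with a peak at ZT4.50 and had no assigned rhythm in WT in the authors' deposited table. Its fitted EpiKO level at ZT0, ZT4, ZT8, ZT12, ZT16 and ZT20 was 7.36, 7.65, 7.47, 7.003, 6.72 and 6.90 (log2), computed from the authors' deposited table. The flat WT level was 10.05 in the authors' deposited table, and all 6 fitted EpiKO values lie below it. Means of Ndc80, Nuf2 and Spc25 were 6.66, 7.64 and 6.86 in WT and 7.18, 7.80 and 7.51 in EpiKO in the authors' deposited table. The WT mean of Spc24 thus stood above theirs, and its EpiKO mean, 7.18, was near theirs. Whether the high WT level of Spc24 hides a rhythm was not tested. From the weights, a WT amplitude of 1.15-fold is implied, with an upper 95% bound of 1.35-fold. Both values take the error of the EpiKO fit for WT as well, and whether the errors are equal was not tested. Ska3, of the same complex as SKA1, cycled 1.86-fold in EpiKO at ZT5.51 in the authors' deposited table. Its implied WT amplitude was 1.27-fold with an upper bound of 1.55-fold, and its rhythm differed with an adjusted p of 1.15e-05 (likelihood ratio test). Zwint, which links KNL1 to the checkpoint proteins of the corona, had implied amplitudes of 1.06-fold in EpiKO and 1.11-fold in WT, with upper bounds of 1.18-fold and 1.23-fold. Any daily swing of Zwint was therefore small beside the 3.27-fold of its partner Knl1. Zwilch, a corona protein, peaked at ZT17.5 in WT, earlier than the rest of this group with a fitted WT rhythm, and at ZT4.54 in EpiKO, in the authors' deposited table.

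In the centromere and inner kinetochore, 5 of 6 genes had different rhythms, and WT folds other than that of Cenpa were at most 1.80. Cenpa, the histone H3 variant that marks the centromere, was the largest, at 2.92-fold in WT and 2.01-fold in EpiKO in the authors' deposited table. Its peaks, ZT0.738 in WT and ZT7.14 in EpiKO, were the latest WT peak and close to the latest EpiKO peak in the authors' deposited table. Cenph was the reverse, with the earliest peak in both genotypes, at ZT16.1 in WT (1.80-fold) and ZT3.21 in EpiKO (1.63-fold), in the authors' deposited table. Cenpi, which works in the same subcomplex as CENP-H, went from 1.77-fold at ZT21.9 to 1.67-fold at ZT4.92 in the authors' deposited table. Cenpm and Cenpn peaked at ZT19.9 and ZT20.4 in WT and at ZT5.62 and ZT4.74 in EpiKO in the authors' deposited table. Cenpk, a further subunit of the CENP-H and CENP-I subcomplex, was assigned a 1.68-fold rhythm in WT only, with a peak at ZT18.2, in the authors' deposited table. Its implied EpiKO amplitude of 1.30-fold has an upper bound of 1.74-fold, which takes in the WT value, and the difference in rhythm did not pass (adjusted p = 0.0671, likelihood ratio test).

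The kinesin CENP-E and the large corona protein CENP-F, both fixed to the outer kinetochore late in the cell cycle, were near-identical in timing. Cenpe went from 2.87-fold at ZT23.98 to 2.14-fold at ZT6.91, and Cenpf from 2.83-fold at ZT0.404 to 2.24-fold at ZT6.95, in the authors' deposited table. Their delays were 6.93 ± 0.682 h and 6.55 ± 0.687 h (SE), which differ by less than those errors.

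Of the spindle checkpoint genes, 3 of 5 had different rhythms, and the other 2 were rhythmic in WT only. Bub1, a kinase of the checkpoint, had fitted WT levels of 7.71, 6.90, 6.27, 6.47, 7.28 and 7.91 (log2) at ZT0 to ZT20. Its fitted EpiKO levels were 7.79, 8.15, 8.04, 7.58, 7.21 and 7.32, both computed from the authors' deposited table. The WT curve is lowest at ZT8, when the EpiKO curve is near its top. Bub1b, which encodes BUBR1 of the complex that blocks CDC20, had 2.55-fold (ZT22.5) in WT and 2.03-fold (ZT5.77) in EpiKO in the authors' deposited table. Mad2l1, which encodes the MAD2 protein of that complex, had the smallest EpiKO amplitude of the 35 genes, 1.55-fold at ZT5.49, after 1.86-fold at ZT20.6 in WT, in the authors' deposited table. Ttk, the kinase MPS1 that starts the checkpoint signal, cycled 2.12-fold in WT at ZT22.8 and had no assigned rhythm in EpiKO in the authors' deposited table. Its implied EpiKO amplitude was 1.13-fold with an upper 95% bound of 1.43-fold, below the WT value, and its rhythm differed with an adjusted p of 0.000365 (likelihood ratio test). Bub3, the adaptor that carries BUB1 and BUBR1 to kinetochores, cycled only 1.31-fold in WT, at ZT21.3, in the authors' deposited table. Its implied EpiKO amplitude was 1.05-fold with an upper bound of 1.16-fold, and its rhythm differed with an adjusted p of 0.00316 (likelihood ratio test). Checkpoint genes that act together thus had fitted EpiKO rhythms in some cases (Bub1, Bub1b, Mad2l1) and none in others (Ttk, Bub3). Differences between these genes were not tested.

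The chromosomal passenger complex (Aurkb, Incenp, Birc5, Cdca8), which corrects faulty attachments, and the mitotic kinases Aurka and Plk1 had different rhythms in 6 of 6 cases. The fitted WT level of Plk1 at the 6 times was 8.16, 7.48, 6.57, 6.34, 7.02 and 7.93 (log2). The fitted EpiKO level was 7.33, 7.74, 7.67, 7.18, 6.76 and 6.84, both computed from the authors' deposited table. The fitted WT values at ZT8 and ZT12 lie below every fitted EpiKO value, and both genotypes were assigned 1 mean. Of the 51-base windows of Plk1 transcripts 10.1% also occur in other genes, chiefly the pseudogene Plk-ps1, so its level is uncertain to that extent. Aurkb went from 3.21-fold at ZT21.8 to 2.35-fold at ZT5.05, and Aurka from 2.35-fold at ZT23.1 to 1.83-fold at ZT5.18, in the authors' deposited table. Aurka had the shortest delay of the 35, 6.12 ± 0.795 h (SE). Birc5, which encodes survivin, went the other way in amplitude, from 1.63-fold at ZT20.9 to 2.19-fold at ZT5.18, in the authors' deposited table. Its partners Cdca8 (2.24-fold to 1.81-fold) and Incenp (1.99-fold to 1.84-fold) had smaller folds in EpiKO in the authors' deposited table.

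Of the genes for cohesion and anaphase, 5 of 6 had different rhythms. Cdc20 had fitted WT levels of 9.35, 8.95, 8.13, 7.72, 8.13 and 8.94 (log2) at the 6 times. Its fitted EpiKO levels were 8.82, 9.27, 9.37, 9.02, 8.57 and 8.47, both computed from the authors' deposited table. From ZT0 to ZT8 the WT curve falls, while the EpiKO curve climbs to its peak at ZT6.80. Cdc20 shares 10.1% of its windows and Ube2c 15.7% with another gene. Sgo1, the shugoshin that shields centromeric cohesin, went from 2.76-fold at ZT22.1 to 1.73-fold at ZT5.12, and Ube2c, the ubiquitin-conjugating enzyme of the anaphase-promoting complex, from 2.52-fold at ZT23.5 to 2.05-fold at ZT6.23, in the authors' deposited table. Espl1, which encodes separase, had 2.15-fold (ZT22.9) in WT and 1.78-fold (ZT5.54) in EpiKO in the authors' deposited table. Cdca5, which encodes the cohesin protector sororin, peaked earlier in WT, at ZT19.9 (2.18-fold), and at ZT4.57 in EpiKO (2.34-fold), in the authors' deposited table. Pttg1, which encodes securin, the inhibitor of separase, had no assigned rhythm, with implied amplitudes of 1.16-fold in WT (upper 95% bound 1.33-fold) and 1.13-fold in EpiKO (upper bound 1.29-fold). The transcript of separase therefore cycled and that of its inhibitor had no detectable rhythm (adjusted p = 0.242 in WT and 0.458 in EpiKO, likelihood ratio test).

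Spindle genes had different rhythms in 4 of 4 cases and the largest median WT amplitude of the groups, 3.28-fold. Aspm, a protein of the spindle poles, had fitted WT levels of 10.04, 9.58, 8.53, 7.95, 8.41 and 9.45 (log2) at the 6 times. Its fitted EpiKO levels were 9.26, 9.85, 10.03, 9.62, 9.04 and 8.85, both computed from the authors' deposited table. The crests are almost equally high, and the EpiKO trough is shallower. Its folds were 4.26 in WT and 2.31 in EpiKO in the authors' deposited table. Ckap2, a microtubule-binding protein, went from 2.71-fold at ZT23.5 to 2.22-fold at ZT6.27 in the authors' deposited table. The delay of Nusap1, which bundles spindle microtubules, was 6.64 ± 0.658 h (SE), and that of Tpx2, the activator of Aurora A, 7.44 ± 0.708 h.

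The cytokinesis genes had different rhythms in 3 of 3 cases. Ect2, which activates RhoA at the cleavage site, went from 2.66-fold at ZT23.0 to 2.03-fold at ZT6.42, and Anln, the anillin scaffold of the contractile ring, from 2.46-fold at ZT22.6 to 1.83-fold at ZT6.62, in the authors' deposited table. Prc1, which bundles the midzone of the spindle, had near-equal amplitudes, 1.82-fold in each, with peaks at ZT23.0 and ZT5.54, in the authors' deposited table. Foxm1, the transcription factor that drives many of these genes, went from 2.58-fold at ZT21.7 to 2.32-fold at ZT5.49 in the authors' deposited table. Its delay was 7.79 ± 0.654 h (SE), close to the mean of the 35 genes.

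All 35 genes with different rhythms peaked later in EpiKO. Their delays ran from 6.12 to 11.2 h, and averaged 7.56 h with a median of 7.27 h. Among all 470 genes of that class 69.6% peaked 3 to 12 h later. The median standard error of a delay was 0.741 h. The delays of Zwilch, 11.0 ± 0.942 h (SE), Cenph, 11.2 ± 0.992 h, and Cenpm, 9.75 ± 1.31 h, have 95% intervals that take in 12 h, where later and earlier cannot be told apart. Without Zwilch and Cenph, left out after their values were seen, the longest delay was 9.75 h and the mean 7.35 h.

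Peak times lay closer together in EpiKO than in WT. The 35 WT peaks spanned 8.69 h with an SD of 1.79 h, and the EpiKO peaks 3.96 h with an SD of 0.906 h. Without Zwilch and Cenph the spans were 4.87 and 2.78 h and the SDs 1.27 and 0.812 h. The error of a single peak time, a median of 0.432 h in WT and 0.575 h in EpiKO, was below these spreads. The difference in spread was not tested. Genes that peaked early in WT also tended to peak early in EpiKO, with a Pearson's r of 0.808 and a Spearman's rho of 0.77 across the 35 genes, or 0.77 and 0.734 without Zwilch and Cenph. The points share libraries, so this is a description without a test.

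The groups followed a similar order in both genotypes. Mean WT peaks were ZT20.6 for the inner kinetochore, ZT21.1 for the outer kinetochore, ZT21.4 for the checkpoint and ZT22.0 for the passenger complex and kinases. They were ZT22.5 for cohesion and anaphase, ZT22.9 for cytokinesis, ZT23.2 for the spindle and ZT0.193 for the motor and corona pair. In EpiKO the first 4 of these groups averaged between ZT5.07 and ZT5.48, and the other 4 between ZT5.65 and ZT6.93. The order of the WT groups is not firm, since neighbours other than the spindle genes and the motor and corona pair differ by less than the SD within at least 1 of the 2 groups. The 38 genes rhythmic in WT were split at the median WT peak of ZT22.1, a split made after the data were seen. A promoter entry was available for 14 of 19 earlier and 18 of 19 later genes, so more of the earlier genes are missing. CHR was found in 7 of the 14 earlier and 16 of the 18 later genes, and CCAAT in 9 and 15. Both motifs were found in 3 of the 14 earlier and 15 of the 18 later genes. E2F letters were found in 5 of the 14 earlier and 1 of the 18 later genes. The Cenpm window printed above has E2F letters and Cdc20, Cenpa, Ube2c, Plk1 and Espl1, all later genes, have CHR and CCAAT.

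**Figure D3:**
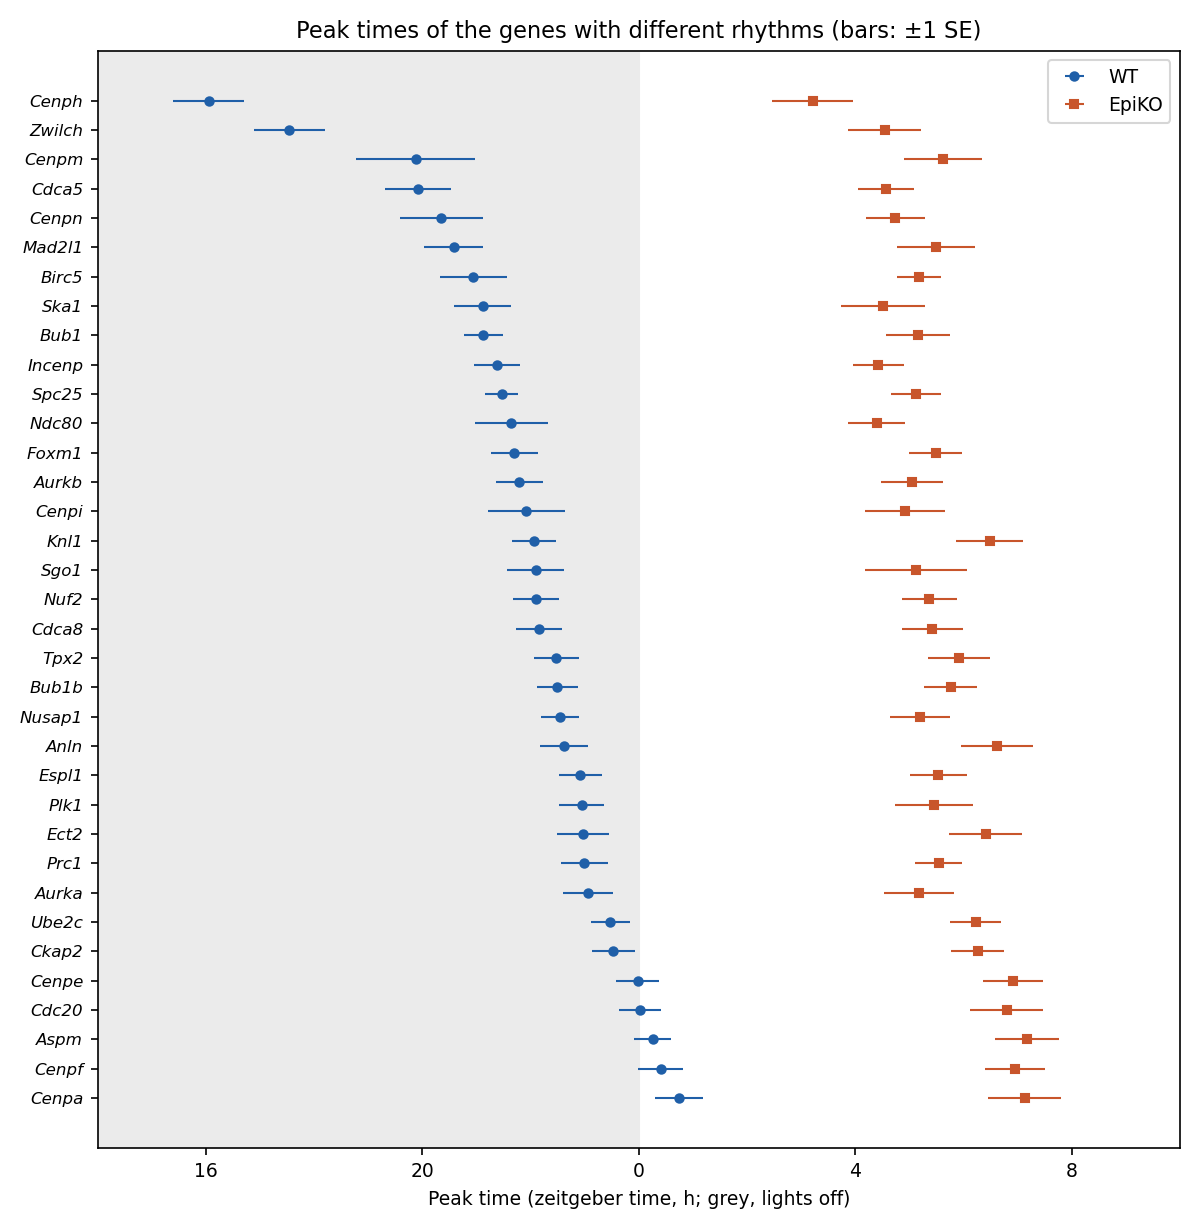
Peak time (zeitgeber time, h, horizontal axis, lights off in grey) of each of the 35 genes with different rhythms in WT (circles) and EpiKO (squares), with bars of 1 standard error, ordered by WT peak. WT peaks run from ZT16.1 (Cenph) to ZT0.738 (Cenpa) and EpiKO peaks from ZT3.21 (Cenph) to ZT7.17 (Aspm).

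Most of the 35 genes had a smaller daily swing in EpiKO, by shares near those of all genes with different rhythms. The median fold amplitude of the 35 genes was 2.58 in WT, from 1.57 (Cenpm) to 4.26 (Aspm), and 2.01 in EpiKO, from 1.55 (Mad2l1) to 2.61 (Ndc80). The EpiKO fold was the smaller in 29 of 35 genes, against 72.3% of the 470 genes with different rhythms, and the median ratio was 0.793. The 95% interval of the ratio lay below 1 for 12 genes, against 26.6% of that class, which are Aspm, Plk1, Nusap1, Bub1, Spc25, Sgo1, Cdc20, Knl1, Ska1, Cenpa, Tpx2 and Anln. Aspm had the lowest ratio, 0.542, with an interval from 0.379 to 0.774. Birc5 was the 1 gene with an interval above 1 (ratio 1.34, from 1.07 to 1.68), against 3.62% of that class. For the other 22 genes the interval took in 1, among them Cenpm (1.248), Ndc80 (1.17), Cenpn (1.17), Cdca5 (1.07) and Prc1 (1.00), whose ratios were not below 1. Amplitudes in both genotypes were less alike than peak times, with a Pearson's r of 0.465 and a Spearman's rho of 0.451 over the 35 genes, again as a description.

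**Figure D4:**
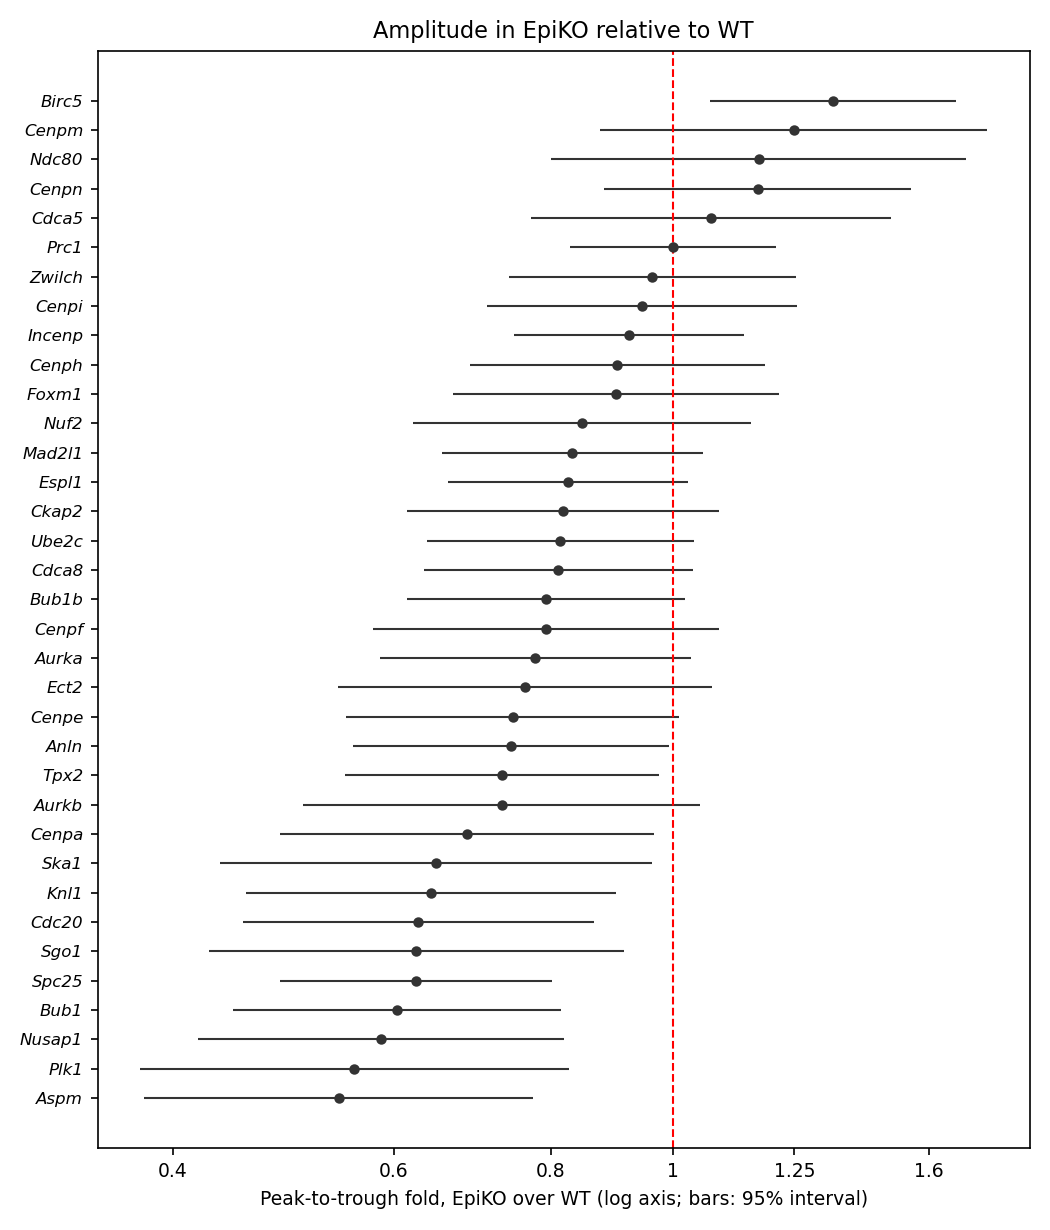
Ratio of peak-to-trough fold in EpiKO over WT (log axis) for each of the 35 genes with different rhythms, with 95% intervals. The ratios run from 0.542 (Aspm) to 1.34 (Birc5), 12 intervals lie below 1 and 1 above it.

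Mean levels over the day were higher in EpiKO for most of the genes. The mean was higher in EpiKO for 30 of 42 genes (31.8% of all genes, likelihood ratio test) and lower for 5 (36.4% of all genes). The median difference was 0.40 (log2, EpiKO minus WT), against 0 over all genes. Cenpa differed by 1.17, Ttk by 0.88 and Mad2l1 by 0.73 in the authors' deposited table. The 7 genes that did not pass were Nuf2 (adjusted p = 0.0642, likelihood ratio test) and Cenpm, Cenpf, Plk1, Incenp, Espl1 and Foxm1, which were assigned 1 mean for both genotypes. The 5 lower genes were Spc24 at -2.87, Ska3 at -1.11, Birc5 at -0.70, Ube2c at -0.24 and Prc1 at -0.11 in the authors' deposited table. When differences were centred on the median and had to exceed 0.5, 13 genes were higher, against 11.5% of all genes, and 3 lower, against 23.3%.

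Spc24 and Ska3 stand out as the genes with both the lowest means in EpiKO, relative to WT, and a rhythm in EpiKO only. Over all genes, mean differences moved with the share of a gene's exons covered by exons of a gene on the opposite strand. Of genes with no such overlap 16.98% were lower in EpiKO by more than 1 (log2), of those with over 50% and up to 90% overlap 56.94%, and of those with over 90% overlap 89.29% (25 of 28). The strand setting of the counting, for either set of libraries, is not given. The 9 of the 42 genes with any overlap had up to 25%, a class in which 13.05% of genes were lower by more than 1. Ska3 overlaps the opposite-strand gene Sap18 over 2.88% of its exonic bases, and the mean of Sap18 was 10.50 in WT and 8.95 in EpiKO (log2) in the authors' deposited table. Ube2c overlaps Tnnc2 over 22.8%, and the mean of Tnnc2, a muscle gene, was 1.599 in WT and -2.41 in EpiKO in the authors' deposited table. Prc1 overlaps Rccd1 over 11.1%, and Rccd1 was higher in EpiKO, at 8.10 against 7.58, in the authors' deposited table. Spc24 and Birc5 have no such overlap. Of the 33 genes with no overlap 28 had different rhythms and 2 had lower means. The part of strand in these differences was not tested.

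**Figure D5:**
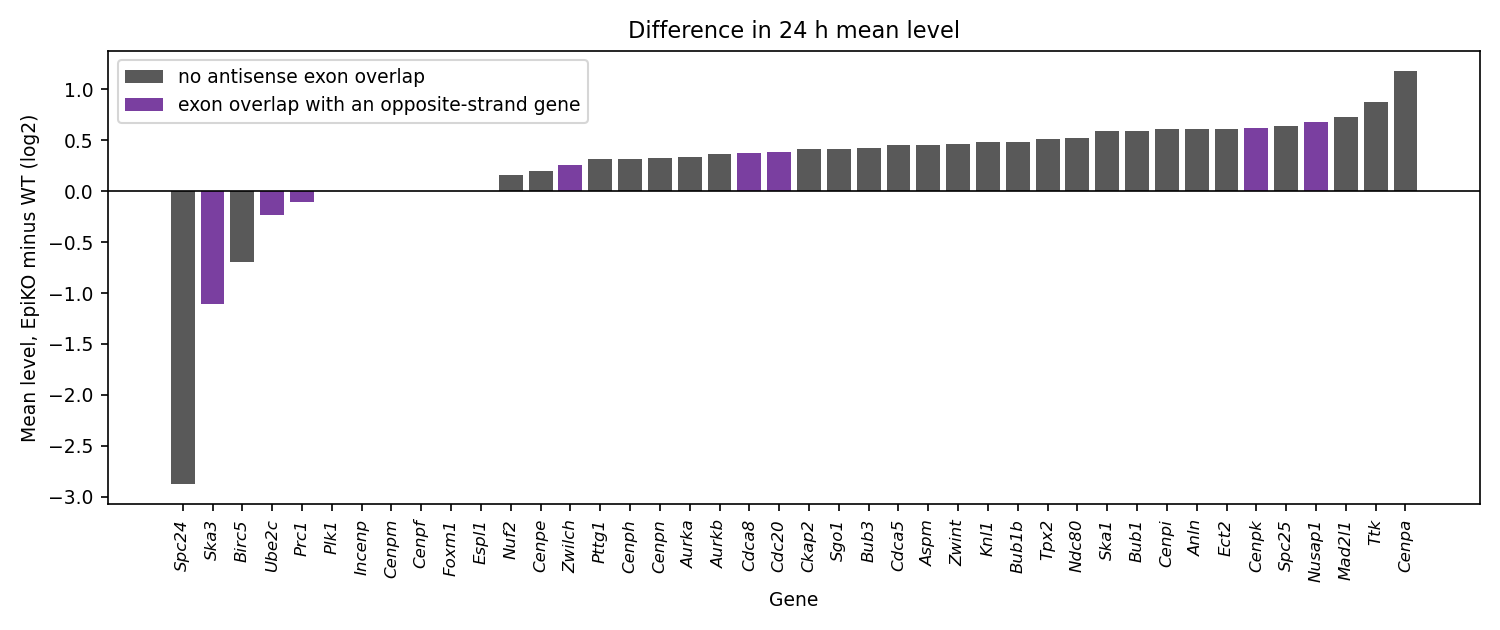
Difference in the 24 h mean level, EpiKO minus WT (log2, vertical axis), for each of the 42 genes, ordered by size; purple bars are the 9 genes whose exons overlap a gene on the opposite strand. Spc24 is lowest at -2.87 and Cenpa highest at 1.17.

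Related genes were read from lists of the same pathways. Mitotic kinesins had different rhythms in 9 of 9 cases, with a mean delay of 7.49 h, and the mitotic cyclins with Cdk1 in 5 of 5, with a mean delay of 6.90 h. Of 17 other cytokinesis genes 8 had different rhythms and 9 passed the test of a difference. Kif14, a kinesin of the midbody, had 3.68-fold (ZT22.5) in WT and 2.60-fold (ZT5.57) in EpiKO, and Cep55, which recruits the abscission machinery, 3.16-fold (ZT22.9) and 1.97-fold (ZT5.90), in the authors' deposited table. The outer kinetochore gene Nsl1, a subunit of the MIS12 complex, resembled Spc24, with 1.80-fold at ZT4.86 in EpiKO only and a mean lower in EpiKO by a log2 value of -3.05, per the authors' deposited table. Of the other outer kinetochore genes 8 of 11 passed the test of a difference, of other checkpoint genes 4 of 7, of other inner kinetochore and CENP-A loading genes 6 of 15 and of other spindle and centrosome genes 11 of 19. Of 18 anaphase-promoting complex genes 1 passed. Over the lists of other genes, the anaphase-promoting complex and the G2/M transcription genes, 44 of 101 passed, against 39 of the 42. That total leaves out the DNA replication genes, the kinesins (9 of 9 passed) and the mitotic cyclins with Cdk1 (5 of 5 passed).

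DNA replication genes, which act earlier in the cell cycle, had different rhythms in 6 of 31 cases and a WT-only rhythm in 23. The test of a difference was passed by 27 of the 31, against 39 of the 42. A rhythm in EpiKO passed for 5 of those 31 genes, against 37 of the 42 described here; that difference between lists was not tested. Of the activators, Mybl2, which encodes B-MYB, was assigned a WT-only rhythm of 2.34-fold at ZT16.7 in the authors' deposited table. Mybl1 (1.996-fold) and Lin9 (1.45-fold) were also in the WT-only class in the authors' deposited table. Wee1, the kinase that holds back entry into mitosis, had 1 shared rhythm of 2.69-fold at ZT10.4 per the authors' deposited table. Arntl itself was rhythmic in WT only (4.65-fold) in the authors' deposited table. Its mean was not lower in EpiKO, at 9.65 against 9.50 (log2) in the authors' deposited table, and as a sum over the whole gene it does not check the deletion. Per2, a clock repressor, had 69.6-fold in WT and 2.91-fold in EpiKO in the authors' deposited table.

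The epidermal label was checked against marker genes. Krt5 had means of 17.82 in WT and 17.73 in EpiKO, and Krt14 16.54 in both (log2), in the authors' deposited table. Means of other keratinocyte markers differed both ways (log2, EpiKO minus WT), and the authors' deposited table gives Itga6 at 0.39, Itgb4 at -0.29, Col17a1 at -0.25 and Dsg1a at -0.55. The summed level of 6 measured markers of the hair matrix, another dividing cell type of skin, was 8.64 in WT and 8.22 in EpiKO (log2) in the authors' deposited table. Fibroblast markers summed to 9.48 in WT and 9.79 in EpiKO over 6 genes in the authors' deposited table. Col1a2 differed by 0.74, Dcn by 0.97 and Lum by 1.29, and Col1a1, Col3a1 and Pdgfra were assigned 1 mean. Sebaceous markers summed to 14.05 in WT and 14.02 in EpiKO over 6 genes in the authors' deposited table. Mgst1, Pparg, Awat1 and Elovl3 were higher in EpiKO by 0.68 to 0.999, Fasn differed by -0.18 and Scd1 was assigned 1 mean. T lymphocyte markers summed to 10.57 and 11.57 over 5 genes, mostly from Thy1 (10.16 in WT, 11.25 in EpiKO), in the authors' deposited table. Of the rest, Cd3g differed by 0.89 and Ptprc by 1.06, and Cd3e and Cd3d were assigned 1 mean for both genotypes. Langerhans cell markers summed to 11.77 and 12.20 over 6 genes in the authors' deposited table. Differences (EpiKO minus WT) were 1.49 for Cd207, 1.02 for Cd74, 1.246 for H2-Aa, 1.20 for H2-Eb1 and -1.66 for Csf1r in the authors' deposited table. Epcam, the highest of the 6 in both genotypes, was assigned 1 mean of 10.82 in the authors' deposited table. Of the 6 melanocyte markers, Tyr differed by -5.05 and Pmel by -0.44 in the authors' deposited table. Dct, Tyrp1, Mlana and Mitf were assigned 1 mean for both genotypes. Thy1, rhythmic in WT only (2.19-fold at ZT23.1 in the authors' deposited table), was the 1 of the 5 T lymphocyte markers whose rhythm differed by the likelihood ratio test. Muscle markers summed to 9.90 in WT and 3.25 in EpiKO over 5 genes, nearly all from Acta1 in WT (9.90, against 2.21 in EpiKO), in the authors' deposited table. The part of other cell types in the differences of mean level was not tested.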

How the data were processed

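Libraries of polyadenylated RNA were made with a stranded kit and read as single reads of 51 bases, per the labels' protocols. The submitters' processing notes name the build mm10, the aligner HISAT2 2.2.1, the counter featureCounts 1.6.0, and Trimmomatic 0.36, SAMtools 1.3.1 and edgeR. Their order and settings, strand included, are not given in the sources used here. EpiKO and WT rhythms were compared with dryR, per the series design text.

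The deposited table gives mean levels as log2 values, cosine coefficients, peak times and, as a score from 0 to 1, the weight of each of 5 rhythm models and 2 mean models, as the authors made them from the Bayesian information criterion. The deposited amplitude is the log2 peak-to-trough height, and a fold is 2 to that power. Columns with a label other than WT were read as EpiKO, since the comparison has 2 sides.

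Each statistic was recovered from the weights as 2 times the log of the weight ratio plus the penalty for 48 libraries, and read against chi-square with 2 degrees of freedom for a rhythm and 1 for a mean. P-values were adjusted by the Benjamini-Hochberg method over 17721 genes, with a threshold of 0.05. The number 48 was read from the weights, since the shared-rhythm weight over the different-rhythm weight cannot exceed it in an exact fit. That ratio lay between 47 and 48 for 500 genes, between 48 and 49 for 39, and above 48 for 54 in all. With the 24 EpiKO libraries this leaves 24 for WT, an assumption on which every p-value and standard error rests. Against statistics computed from the deposited coefficients of 532 genes, the median ratio was 1.006 for the EpiKO rhythm, 0.9963 for the WT rhythm and 0.9973 for the difference. A form with the variance estimated in each fit gave 0.7756 and was not used. Standard errors follow from these statistics. An implied amplitude and its bound use the error of the genotype with a rhythm, or that of the mean difference where neither had one. Equal errors in both genotypes are thereby assumed. The method was tested on simulated data.

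Members and lists were chosen with earlier results of these data known. Every member may be named; given in full were the 3 with the largest WT amplitude per role, those without different rhythms, those with extreme peaks and those whose amplitude was not lower in EpiKO. From each related list up to 4 genes were named by amplitude. The motifs, the promoters printed, the amplitude intervals, implied amplitudes and antisense classes were chosen after the data were seen. Exons came from GENCODE M21 (mm10). Python 3.11.15, NumPy 2.4.6, pandas 2.3.3, SciPy 1.17.1 and Matplotlib 3.10.9 were used.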

Additional observations from a re-analysis of the deposited data

Results flagged for a closer look

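The rhythm of 39 of the 42 genes differed between EpiKO and WT by the likelihood ratio test, a difference between groups under the same contrast of time of day. Zwint, Pttg1 and Cenpk did not pass.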

How the results depend on the processing

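Depth per library is unknown and the spread between animals could not be seen, so replicates could not be left out in turn. No paired analysis was possible because the deposited table holds fits over all libraries and no values per library. Of 33 settings tried on the counts, the mean delay and the median amplitude ratio, 30 stayed close to the values reported and 3 did not. Of the 30, 12 left the same 35 genes in (limits on weight, amplitude and level that all 35 meet), so they say nothing about stability. With mean differences centred on the median and a minimum of 0.5 (log2), 13 genes were higher and 3 lower in EpiKO, against 30 and 5, and of all genes 11.5% and 23.3% at that limit. Among genes with no exon overlap on the opposite strand, an alternative chosen after seeing the data, 2 were lower; the alternative has fewer genes, 33. The number with different rhythms was 31 of 38 among genes that share few 51-base windows with others, leaving out Ube2c, Plk1, Cdc20 and Prc1. For single genes, 376 settings kept their side of the threshold and 2 did not, which were the WT rhythms of Cenpk (adjusted p = 0.017) and Cenpm (adjusted p = 0.015) at a threshold of 0.01, both by likelihood ratio.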
